A study of Mus musculus with 9 samples.

Results

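The endothelial and leukocyte adhesion molecules described here are 10 genes, chosen by name: the selectin genes Sele and Selp, the selectin ligand gene Selplg, the immunoglobulin-family genes Icam1, Icam2, Vcam1 and Pecam1, the junction cadherin gene Cdh5 and the leukocyte integrin alpha chain genes Itgal and Itga4. All 10 were found among the 55401 genes of the count table and the 34637 genes of the FPKM table, and all 10 passed the filter on low counts that left 20817 genes for testing. They were measured by RNA-seq of polyadenylated RNA from the whole back skin of male C57BL/6 mice aged 6 to 8 weeks. All mice, those of the comparison group included, had dermatitis induced with dinitrochlorobenzene (DNCB), a reactive molecule that raises a contact allergy, which was put on the shaved back at 1% on day 1 and at 0.5% from day 4 to day 21. The Model group had 4 libraries from mice given water, and the FJDHF group had 5 libraries from mice fed the Fangji Dihuang formulation, a decoction of botanical drugs, daily after day 7 until day 28. The study's methods name this group as its medium dose, and healthy skin was not analysed here, so the values compare treated with untreated dermatitis.

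The columns of the tables are coded MXL1, MXL12, MXL3_4 and MXL_3, taken as Model, and MR1, MR3, MR3_4, MR4_5 and MR5, taken as FJDHF. This assignment rests on the number of columns per group and on initials, and the direction of every difference between the groups rests on it. The codes could not be matched to single mice, and whether a code with several numbers marks pooled RNA could not be checked, so n counts libraries, and p-values measure the spread between libraries. Where the values of a gene are given for all libraries, they follow the order of the codes above.

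Adhesion molecules take white blood cells out of the blood in steps. Selectins on activated endothelium (E-selectin and P-selectin) catch passing leukocytes through sugar-bearing ligands such as PSGL-1 and let them roll, integrins on the leukocyte then bind immunoglobulin-family molecules such as ICAM-1 and VCAM-1 and hold the cell, and PECAM-1 and VE-cadherin at the junctions between endothelial cells govern its passage. In inflamed skin, E-selectin, ICAM-1 and VCAM-1 are known to be induced on venules by interleukin-1 and TNF through the transcription factor NF-kB, while PECAM-1, ICAM-2 and VE-cadherin are present on resting endothelium.

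The stretch before the start of 3 endothelial members is shown because Sele and Icam1 are among the members known for induction through NF-kB, and Selp is the neighbour of Sele on the same chromosome. RefSeq promoters of GRCm38.p6 were matched by symbol for 4 of the 10 members (Sele, Selp, Icam1 and Itga4). Each line gives the 250 bases before the annotated start on the plus strand, at chr1:164047984-164048233 for Sele, chr1:164115014-164115263 for Selp and chr9:21015690-21015939 for Icam1. Capitals mark matches on either strand to the kappaB-like motif GGNNNTTCC, the AP-1 motif TGANTCA or the TATA box TATAAA, and no match overlapped that of another motif.
Sele: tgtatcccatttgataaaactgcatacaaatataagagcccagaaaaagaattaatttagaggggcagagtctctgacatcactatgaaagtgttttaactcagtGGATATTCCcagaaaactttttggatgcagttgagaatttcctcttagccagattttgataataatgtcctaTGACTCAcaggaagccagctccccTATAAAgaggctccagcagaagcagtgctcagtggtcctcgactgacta
Selp: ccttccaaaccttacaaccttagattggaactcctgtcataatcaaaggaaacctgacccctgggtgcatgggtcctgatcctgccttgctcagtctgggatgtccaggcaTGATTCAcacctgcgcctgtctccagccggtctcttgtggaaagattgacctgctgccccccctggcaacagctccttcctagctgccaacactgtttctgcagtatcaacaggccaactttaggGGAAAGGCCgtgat
Icam1: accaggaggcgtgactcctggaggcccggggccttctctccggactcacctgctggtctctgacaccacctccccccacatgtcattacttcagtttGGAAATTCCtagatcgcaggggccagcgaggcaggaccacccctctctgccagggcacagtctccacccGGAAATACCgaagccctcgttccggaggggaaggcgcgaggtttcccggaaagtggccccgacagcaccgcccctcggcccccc

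The Sele window held the kappaB-like match GGATATTCC from position -145, counted from the start, the AP-1 match TGACTCA from -73 and a TATAAA from -49. The Icam1 window held the kappaB-like matches GGAAATTCC from -153 and, on the minus strand, GGAAATACC from -84. The Selp window held the AP-1 match TGATTCA from -139 and a minus-strand kappaB-like match, GGAAAGGCC, from -14, and the Itga4 window held none of the 3 motifs. Of 32851 promoter windows of the same length, 15.7% held the kappaB-like motif, 6.75% the AP-1 motif and 12.4% the TATA box. The motifs were chosen after the windows had been read, and a match is a description of letters, not of binding.

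Total counts per library lay between 74648669 and 79474215, and the 10 members had from 216 counts (Icam2) to 22015 counts (Pecam1) in a library, far above the 3 counts taken as the floor. No column repeats another, since in each of the 36 pairs the counts differed beyond sampling noise (chi-square divided by its degrees of freedom, 126 to 587). The defining markers of the cells that carry these molecules were present in every library, with Kdr at 46.5 to 95.4 CPM, Tek at 47.5 to 155 CPM and the leukocyte marker Ptprc at 67.5 to 196 CPM, where CPM is the count scaled by library size with edgeR's TMM method. The keratinocyte gene Krt14 was at 203 to 2322 CPM, as in skin. In whole skin, fewer cells of a type and less RNA per cell cannot be told apart.

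For none of the 10 adhesion molecule genes did the difference between the groups pass the test. Under edgeR's quasi-likelihood test, the number with an adjusted p under 0.05 was 0 of 10, beside 0 of 20817 genes tested (0%), and every adjusted p was 1.00. At an unadjusted p under 0.05 the number was 0 of 10, against 326 of all genes (1.57%), of which 161 were higher (0.773%) and 165 lower (0.793%) in the FJDHF group. The groups overlapped in all 10 members, while they did not overlap in 107 of all genes (0.514%). By log2 fold change alone, 5 members were higher and 5 lower in the FJDHF group, where 44.1% of all genes were higher. The median log2 fold change was 0.013 over the members and -0.032 over all genes tested, and the median absolute log2 fold change was 0.171 and 0.155. DESeq2's Wald test called 2 genes at an adjusted p under 0.05 (0.00961%) and 460 at an unadjusted p under 0.05 (2.21%), with no member among either, and limma on log2(FPKM + 1) had 387 at an unadjusted p under 0.05 (1.86%), again with no member.

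**Figure D1:**
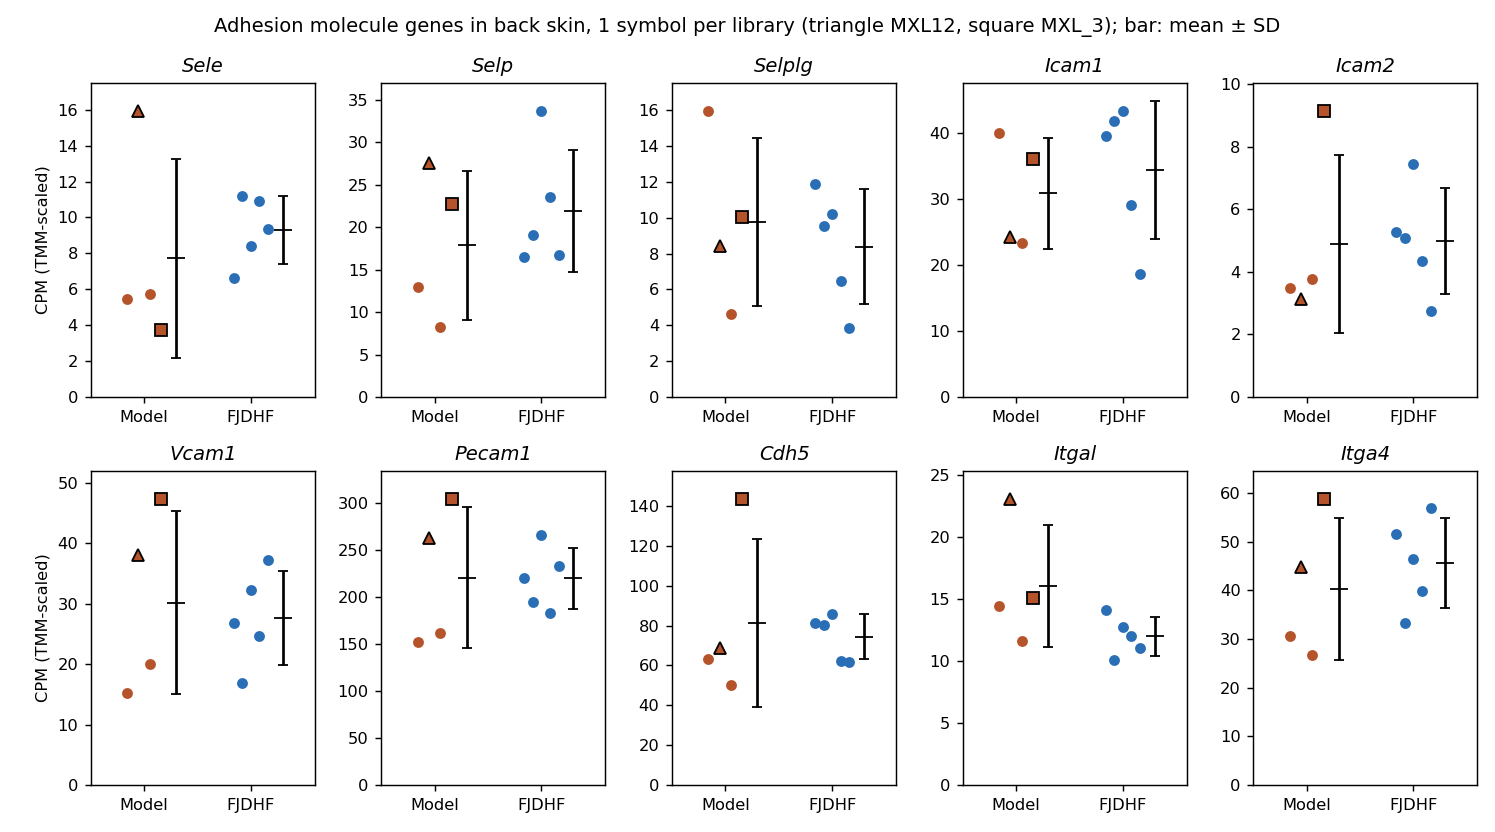
Level of each adhesion molecule gene in CPM (y axis, linear from 0) in the 4 Model libraries (brown) and the 5 FJDHF libraries (blue), 1 symbol per library, with the mean ± SD as a bar beside them. The groups overlap in every panel, and MXL12 (triangle) or MXL_3 (square) is the highest library in 7 of the 10.

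Among the selectins, Sele and Selp had higher means in the FJDHF group and Selplg a lower one, each within the spread of the libraries. Sele (ENSMUSG00000026582, chromosome 1, 164048234 to 164057677, plus strand, GRCm38) encodes E-selectin, which is made by cytokine-activated endothelium. It measured 5.46, 15.9, 5.74 and 3.73 CPM in the Model libraries and 6.64, 11.2, 8.40, 10.9 and 9.36 CPM in the FJDHF libraries. MXL12 was the highest library of all and the other 3 Model libraries were the lowest of all, so the FJDHF libraries lay inside the range of the Model group. The means were 7.71 ± 5.54 CPM (SD, n = 4) and 9.31 ± 1.88 CPM (SD, n = 5), and edgeR's log2 fold change was 0.27 (standard error 0.40), with a 95% interval of 0.650- to 2.24-fold. EdgeR's unadjusted p was 0.516, and the exact permutation test of the log2 levels over all 126 splits gave p = 0.310 (two-sided, the smallest possible is 0.00794).

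The estimate depended on MXL12. Without it, the log2 fold change of Sele was 0.90 (edgeR p = 0.00847, adjusted p = 1.00), the 3 remaining Model libraries lay below all 5 FJDHF libraries, and the exact permutation p was 0.0179, the smallest that 3 against 5 libraries allow. In that fit 380 of 21332 genes had an unadjusted p under 0.05 (1.78%), 229 of them higher in the FJDHF group (1.07%), 150 genes were higher without overlap (0.703%) and 164 lower without overlap (0.769%). Sele was the only member in these counts, on the higher side, and no member was lower without overlap. MXL12 was the only Model library with more Sele than the FJDHF libraries, so leaving it out takes away the Model value that opposes the difference. No result is therefore drawn from the p-values of that fit. Leaving out MXL_3, the library with the least Sele, moved the log2 fold change to 0.042. Of the listed cytokines known to induce adhesion molecules, 4 were highest in MXL12, with Il1b at 659 CPM against 2.23 to 50.2 CPM in the other libraries, Tnf at 9.18 against 0.810 to 3.89 CPM, Il6 at 14.1 against 0.225 to 1.33 CPM and Il1a at 36.3 against 7.39 to 22.2 CPM. The others were not, with Ifng and Il13 at 0 CPM in MXL12, Lta at 0.159 CPM (up to 0.484 elsewhere) and Il4 at 1.34 CPM (up to 1.81 elsewhere). The part of these cytokines in the Sele level of this library was not tested.

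Selp (ENSMUSG00000026580, chromosome 1, 164115264 to 164150026, plus strand) encodes P-selectin, which endothelium and platelets store in granules. It measured 13.0, 27.5, 8.28 and 22.7 CPM in the Model libraries and 16.4, 19.1, 33.7, 23.5 and 16.7 CPM in the FJDHF libraries. MXL3_4 and MXL1 were the lowest libraries and MR3_4 the highest, with 4 of the 5 FJDHF libraries inside the Model range. EdgeR put the log2 fold change at 0.29 (standard error 0.36, edgeR p = 0.435, interval 0.703- to 2.13-fold; exact permutation p = 0.381), and 0.58 without MXL12 (edgeR p = 0.145). Exons of Selp overlap those of Gm16548 and Gm16587 on the opposite strand, whose reads cannot be told apart from its own if strand was not used in counting. The platelet markers had no common order over the libraries. Pf4 was at 2.45 to 15.4 CPM and highest in MXL1 and MR3, Itga2b was highest in MXL1 (6.94 CPM), and Ppbp was highest in MXL12 and MR3_4 (1.83 and 1.31 CPM), the libraries with most Selp. The part of platelets in the Selp level was not tested.

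Selplg (ENSMUSG00000048163, chromosome 5, 113818536 to 113830501, minus strand) encodes PSGL-1, the ligand through which leukocytes roll on P-selectin. It measured 15.95, 8.42, 4.66 and 10.04 CPM in the Model libraries and 11.9, 9.57, 10.2, 6.46 and 3.85 CPM in the FJDHF libraries. MXL1 was highest and MR5 lowest, a 4.15-fold span that ran through both groups. The estimated log2 fold change was -0.22 (standard error 0.40, edgeR p = 0.596, interval 0.464- to 1.59-fold; exact permutation p = 0.683), and its sign rested on MXL1, without which it was 0.12.

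The immunoglobulin-family members showed no common direction. Icam1 (ENSMUSG00000037405, chromosome 9, 21015985 to 21028817, plus strand) encodes ICAM-1, the inducible ligand of the integrin LFA-1 on endothelium, keratinocytes and leukocytes. It measured 40.0, 24.2, 23.3 and 36.0 CPM in the Model libraries and 39.5, 41.8, 43.3, 29.1 and 18.6 CPM in the FJDHF libraries. The FJDHF group held the 2 highest libraries and also the lowest, and its mean of 34.5 ± 10.5 CPM (SD, n = 5) lay near the Model mean of 30.9 ± 8.37 CPM (SD, n = 4). The log2 fold change was 0.16 (standard error 0.28, edgeR p = 0.579, interval 0.729- to 1.71-fold; exact permutation p = 0.667). MXL12, with the highest Il1b and Tnf, had less Icam1 than 6 of the other libraries. After the correction for GC content described further on, it was the highest Model library, at 5.16 on the log2 scale against 4.77 to 5.08. The FJDHF library MR3_4 was above it after that correction. The part of these cytokines in the Icam1 level was not tested. Exons of Icam1 overlap those of Gm47079 on the opposite strand.

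Icam2 (ENSMUSG00000001029, chromosome 11, 106377656 to 106388075, minus strand) encodes ICAM-2, an LFA-1 ligand of resting endothelium. It was the member with the fewest counts, at 3.48, 3.14, 3.78 and 9.14 CPM in the Model libraries and 5.27, 5.08, 7.45, 4.36 and 2.75 CPM in the FJDHF libraries. MXL_3 stood above all others, and the remaining 3 Model libraries lay below all FJDHF libraries but MR5. As a log2 fold change the difference was 0.029 (standard error 0.39, edgeR p = 0.942, interval 0.557- to 1.87-fold; exact permutation p = 0.794), between -0.16 without MR3_4 and 0.52 without MXL_3.

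Vcam1 (ENSMUSG00000027962, chromosome 3, 116109949 to 116129688, minus strand) encodes VCAM-1, the endothelial ligand of the integrin that contains the Itga4 chain. It measured 15.3, 38.2, 20.0 and 47.3 CPM in the Model libraries and 26.8, 16.9, 32.3, 24.7 and 37.3 CPM in the FJDHF libraries. The Model group split into a high pair, MXL_3 and MXL12, and a low pair, with all 5 FJDHF libraries between the extremes. On the log2 scale the fold change was -0.13 (standard error 0.35, edgeR p = 0.718, interval 0.535- to 1.56-fold; exact permutation p = 0.929). Its exons overlap those of Gm43109 on the opposite strand.

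Pecam1 (ENSMUSG00000020717, chromosome 11, 106654217 to 106750628, minus strand) encodes PECAM-1, which joins endothelial cells and is also carried by platelets and leukocytes. It measured 153, 263, 162 and 304 CPM in the Model libraries and 221, 195, 267, 183 and 233 CPM in the FJDHF libraries. The high and low Model pairs were those of Vcam1, and the group means were 220.5 ± 75.1 CPM (SD, n = 4) and 219.9 ± 32.8 CPM (SD, n = 5). This was the smallest difference of the 10, with a log2 fold change of -0.0037 (standard error 0.23, edgeR p = 0.987, interval 0.700- to 1.42-fold; exact permutation p = 0.833).

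Cdh5 (ENSMUSG00000031871, chromosome 8, 104101625 to 104144511, plus strand) encodes VE-cadherin, the adhesive protein of endothelial adherens junctions. It measured 63.3, 68.7, 49.9 and 143.5 CPM in the Model libraries and 81.3, 80.1, 85.9, 62.4 and 62.0 CPM in the FJDHF libraries. MXL_3 stood far above the other 8 libraries, which lay between 49.9 and 85.9 CPM in both groups. The log2 fold change was -0.13 (standard error 0.29, edgeR p = 0.659, interval 0.587- to 1.42-fold; exact permutation p = 0.937), and 0.29 without MXL_3 (edgeR p = 0.142). In MXL_3 the endothelial markers as a list were also at their highest, and relative to them its Cdh5 was within the range of the other libraries. Skeletal muscle markers were highest in MXL_3 too, and with their level as a covariate the log2 fold change of Cdh5 was -0.15.

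The integrin chains had estimates of opposite sign. Itgal (ENSMUSG00000030830, chromosome 7, 127296260 to 127335138, plus strand) encodes the alpha chain of LFA-1, the leukocyte receptor for ICAM-1 and ICAM-2. It measured 14.5, 23.1, 11.7 and 15.1 CPM in the Model libraries and 14.1, 10.1, 12.8, 12.00 and 11.1 CPM in the FJDHF libraries. MXL12 was highest, 3 of the 5 FJDHF libraries lay inside the Model range and the other 2 below it. This was the member nearest to a call, with means of 16.1 ± 4.91 CPM (SD, n = 4) and 12.00 ± 1.55 CPM (SD, n = 5), an estimated log2 difference of -0.42 (standard error 0.23, edgeR p = 0.0900, interval 0.528- to 1.06-fold) and an exact permutation p of 0.0794. The estimate was -0.20 without MXL12 (edgeR p = 0.360, exact permutation p = 0.214) and -0.55 without MXL3_4, the lowest Model library (edgeR p = 0.0400, adjusted p = 1.00, exact permutation p = 0.0179). Leaving out MXL3_4 takes away the Model value that most opposes the difference. Without MXL3_4 every Model library lay above every FJDHF library. The share of all genes without overlap in that fit is not given, so this separation is not read as a result. The counts of genes past the unadjusted threshold over such fits are given further on. MXL12 also had the highest level of the neutrophil markers, and whether those cells carry its Itgal was not tested.

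Itga4 (ENSMUSG00000027009, chromosome 2, 79255426 to 79333123, plus strand) encodes the alpha chain of the integrins that bind VCAM-1 and MAdCAM-1 on lymphocytes, monocytes and eosinophils. It measured 30.6, 44.7, 26.7 and 58.8 CPM in the Model libraries and 51.6, 33.4, 46.4, 39.8 and 56.9 CPM in the FJDHF libraries. All 5 FJDHF libraries lay within the Model range. EdgeR's log2 fold change was 0.18 (standard error 0.26, edgeR p = 0.493, interval 0.765- to 1.68-fold; exact permutation p = 0.429). Its exons overlap those of Cerkl on the opposite strand.

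**Figure D2:**
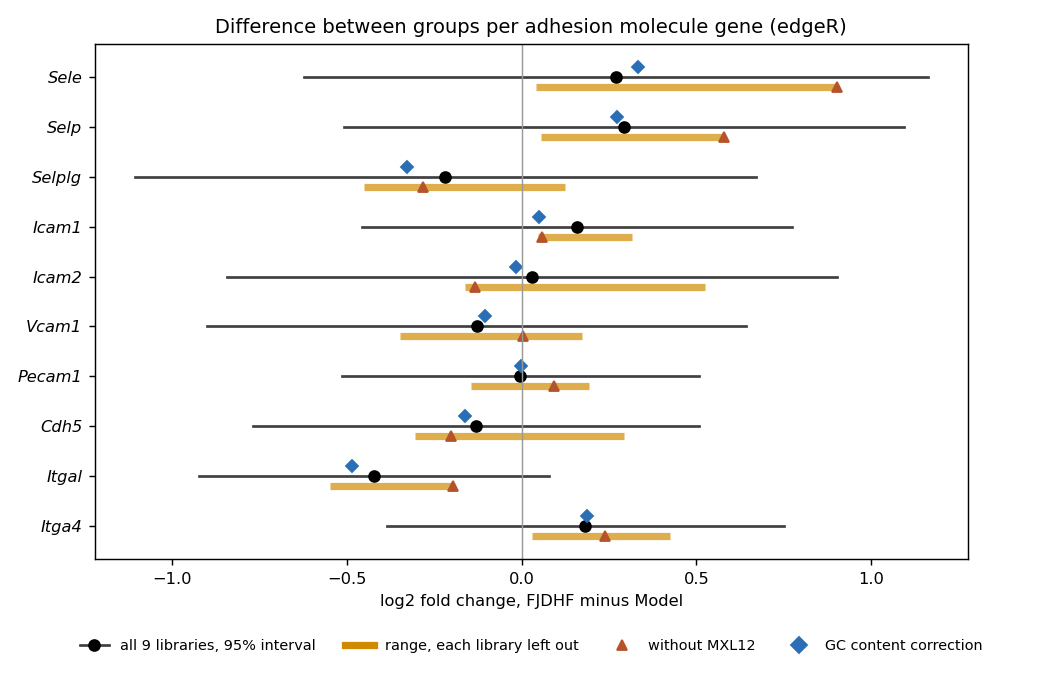
Log2 fold change of FJDHF minus Model (x axis) for each adhesion molecule gene, from edgeR with all 9 libraries and its 95% interval (black), as the range over 9 fits that each leave out a library (yellow bar), without MXL12 (brown triangle) and after a correction for GC content (blue diamond). All 10 intervals span 0, and leaving out MXL12 moves Sele from 0.27 to 0.90.

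The libraries of the Model group were spread more widely than those of the FJDHF group. The SD of log2(CPM + 0.5) was larger in the Model group for 9 of the 10 members, all but Icam1, against 63.4% of all genes tested, with a median SD over the members of 0.652 in the Model and 0.362 in the FJDHF libraries. Sele had the widest gap, from 0.84 in the Model to 0.29 in the FJDHF libraries. Of the 10 members, MXL_3 was the highest library for 5 (Icam2, Vcam1, Pecam1, Cdh5 and Itga4) and the lowest for Sele, and MXL12 was the highest for 2 (Sele and Itgal). With both of these libraries set aside, the Model SD was larger for 5 of 10 members and 47.5% of all genes, which leaves 2 Model libraries. No test was made of the spread.

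Per length of transcript, the junction molecules had the highest medians of the list. The authors' FPKM values, which are scaled for gene length and depth, had medians over the 9 libraries of 33.4 for Pecam1, 15.5 for Cdh5, 7.51 for Icam1, 4.26 for Selp, 3.03 for Itga4, 2.84 for Vcam1, 2.63 for Sele, 2.23 for Icam2, 2.13 for Selplg and 1.80 for Itgal. Of the neighbours in this order, only Cdh5 (11.1 to 31.1) and Icam1 (4.16 to 9.43) had ranges that did not overlap. The lengths implied by counts and FPKM followed the union of all annotated exons, which for Vcam1 is 8870 bases where the longest coding transcript has 3469. With CPM per kilobase of the longest coding transcript in GENCODE M21, Pecam1, Cdh5 and Icam1 remained at the first 3 ranks, Selplg moved from rank 9 to 6, Vcam1 from 6 to 4, Itga4 from 5 to 7 and Sele from 7 to 9. On this second scale the ranges of Cdh5 and Icam1 overlapped, while those of Pecam1 and Cdh5 did not. The order below the first 3 ranks thus depends on the gene model. So does which of the first 3 members are separated by their ranges.

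Each member was also set against markers of a cell type that carries it. The value was log2 level minus the mean of 13 endothelial markers, or of 8 pan-leukocyte markers for Selplg, Itgal and Itga4. Members set against the endothelial markers, Icam1, Pecam1 and Selp among them, can also be carried by other cells, which these markers do not cover. On this scale no difference between the groups passed the test, with exact permutation p-values from 0.159 (Itgal, difference -0.39) to 0.913 (Pecam1, difference 0.045). The members differed in how closely they kept to the endothelial markers from library to library. Cdh5 spanned 1.56-fold over the 9 libraries, Icam1 1.71-fold, Icam2 1.77-fold and Pecam1 2.47-fold, against 2.99-fold for Selp, 3.54-fold for Vcam1 and 8.32-fold for Sele. With members and markers corrected for GC content as described further on, the spans were 1.33-fold for Cdh5, 1.66-fold for Pecam1, 1.69-fold for Icam2, 1.89-fold for Icam1, 1.91-fold for Vcam1, 2.79-fold for Selp and 5.91-fold for Sele, so that Vcam1 no longer stood apart from Icam1. Per endothelial marker level, Sele was lowest in MXL_3 at -3.40 and highest in MXL12 at -0.34, while Cdh5 in MXL_3 was 1.69, inside the range of 1.09 (MXL1) to 1.73 (MXL12). Relative to the endothelial markers, Selp without MXL12 differed by 0.75 between the groups, which then did not overlap (exact permutation p = 0.0357, not adjusted for the 10 members tested). MXL12 had the highest Selp value on this scale, so leaving it out takes away the Model value that most opposes the difference. The share of all genes without overlap on this scale is not given, so this separation is not read as a result.

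**Figure D3:**
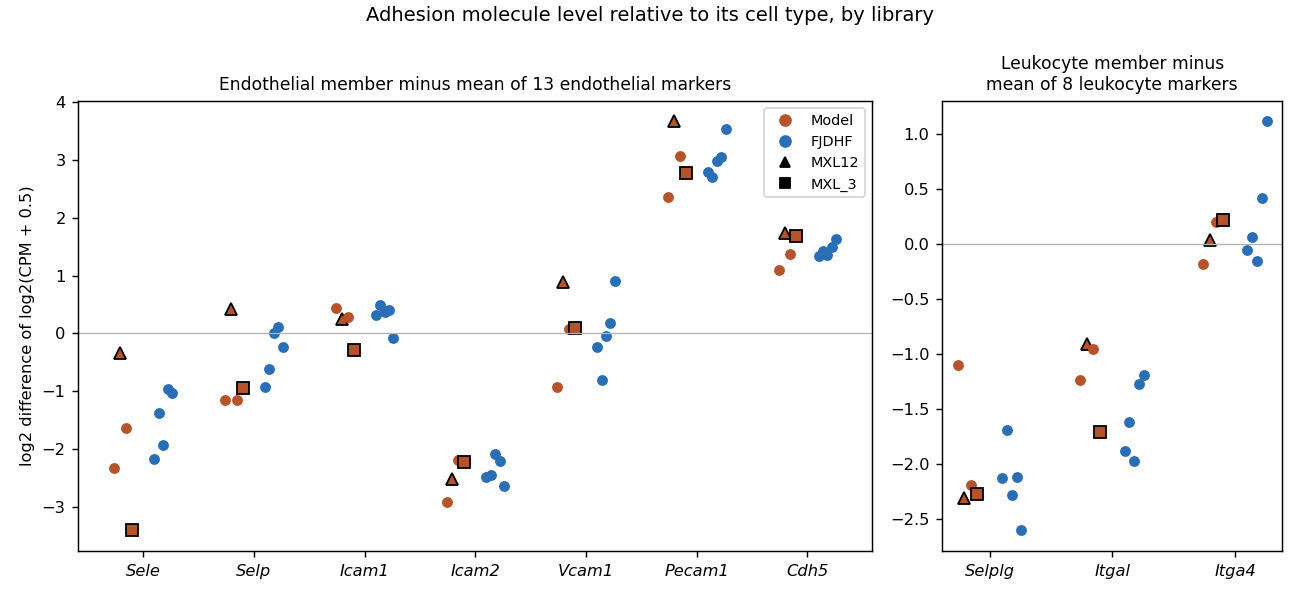
Log2(CPM + 0.5) of each member minus the mean of its reference markers (y axis) in the Model (brown) and FJDHF (blue) libraries, with endothelial members on the left and leukocyte members on the right. Cdh5 lies in the narrowest band, and Sele runs from -3.40 in MXL_3 (square) to -0.34 in MXL12 (triangle).

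A further difference between libraries, present in both groups, followed the GC content of the transcripts. The median deviation of the tenth of genes with the highest GC content, minus that of the tenth with the lowest (1516 genes each, log2 scale), was 1.14 in MXL1, 0.88 in MR3, 0.29 in MR1, 0.22 in MXL_3, 0.20 in MR3_4, 0.020 in MR4_5, -0.56 in MXL3_4, -1.12 in MR5 and -1.12 in MXL12. The extremes included libraries of both groups. Of the members, Selplg had 58.6% GC and Icam1 55.4%, against 49.5% for the median gene tested, and Itga4 had 41.1%. The highest and lowest libraries of Selplg, MXL1 and MR5, were near the opposite ends of this order.

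When the median deviation in 20 bins of GC content was taken off, an alternative added after seeing the data, the span of Icam1 over the libraries narrowed from 2.29- to 1.47-fold and that of Selplg from 3.78- to 2.35-fold, on the log2(CPM + 0.5) scale. Sele went from 3.88- to 3.31-fold, Cdh5 from 2.86- to 2.81-fold and Pecam1 from 1.99- to 2.00-fold, and Selp, Itgal and Itga4 widened. After the correction the Icam1 difference was 0.050 with a standard error of 0.15, the narrowest of the 10, and Selplg was highest in MXL12, no longer in MXL1. Sele kept MXL12 as its highest and MXL_3 as its lowest library, and without MXL12 its groups did not overlap (difference 0.80, exact permutation p = 0.0179). Leaving out MXL12 again takes away the Model value that most opposes the Sele difference. No member was called after the correction at an unadjusted p under 0.05, with Itgal lowest at -0.49 (edgeR p = 0.0699, exact permutation p of its corrected levels 0.0714).

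**Figure D4:**
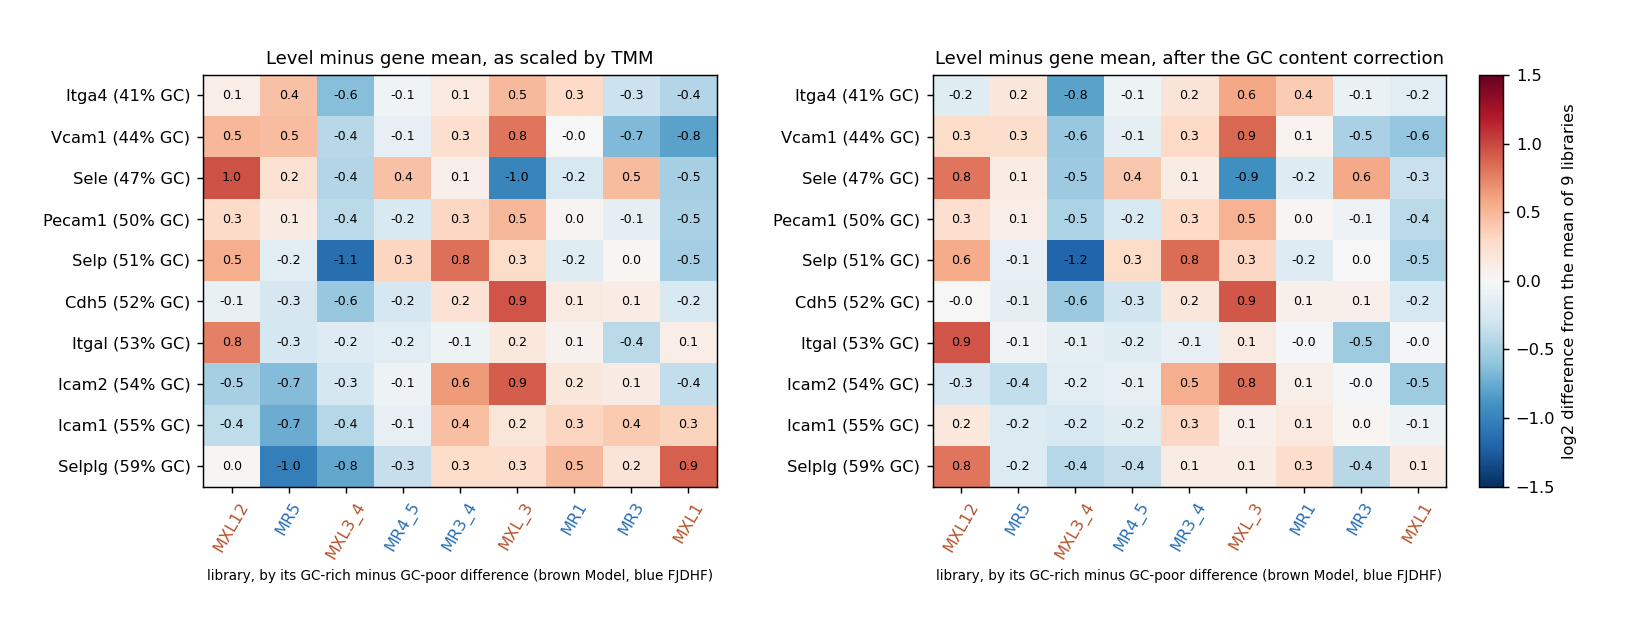
Log2 level of each member minus its mean over the 9 libraries (colour and printed value), with members ordered by GC content (rows) and libraries by their GC-rich minus GC-poor difference (columns, Model codes in brown and FJDHF codes in blue), before (left) and after (right) the GC correction. Icam1 and Selplg run mostly from blue to red across the left panel, and both rows are paler on the right, except Selplg in MXL12.

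Among the partners of these molecules, few differences came near the threshold. Of 60 genes in 4 lists of companion adhesion genes, 57 were tested, 18 were higher and 39 lower in the FJDHF group by log2 fold change, 0 passed an adjusted p under 0.05 and 1 passed an unadjusted p under 0.05. Over all genes tested, 44.1% were higher and 1.57% passed an unadjusted p under 0.05 in edgeR's test. The median log2 fold change of the 57 was -0.066, beside -0.032 for all genes. The gene past the unadjusted threshold was Tpst1, a tyrosine sulfotransferase of the kind that modifies PSGL-1. It measured 69.6, 52.5, 53.0 and 77.4 CPM in the Model and 51.6, 49.7, 50.4, 39.2 and 41.2 CPM in the FJDHF libraries. Every FJDHF library lay below every Model library, as in 59 of all 20817 genes tested (0.283%). The log2 fold change of Tpst1 was -0.44 (edgeR p = 0.0260, adjusted p = 1.00), and the exact permutation p of 0.00794 is the smallest possible. Tpst1 was named for its small p, so these p-values are not those of a gene chosen beforehand. The unadjusted edgeR p stayed under 0.05 in 5 of 9 fits that left out a library, and was highest without MXL_3 (log2 fold change -0.33, edgeR's unadjusted p = 0.0864, adjusted over all genes 1.00).

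Among the 11 integrin chains that accompany Itgal and Itga4, 2 were higher and 9 lower, with a median of -0.13 and none past the unadjusted threshold, and without MXL_3 the median was 0.021, with 6 higher and 5 lower. Itgb2, the beta chain of LFA-1, had a log2 fold change of -0.066, Itgb1, which pairs with Itga4 to bind VCAM-1, of -0.13, and Itgb7, its other partner, of 0.21. The chains with the smallest p of this list were Itgae (log2 fold change -0.37, exact permutation p = 0.214), Itga2 (-0.37, exact permutation p = 0.421) and Itgax (-0.27, exact permutation p = 0.635).

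Of the 16 tested selectin ligands and glycosylation enzymes, 4 were higher and 12 lower, with a median of -0.070. Cd34, a scaffold of selectin ligands and a marker of vessels and progenitors, had a log2 fold change of -0.53 (edgeR p = 0.118, exact permutation p = 0.238) and was highest in MXL_3. Fut7, which completes the selectin-binding sugar, was at 0.026 to 0.734 CPM, and Chst4 was not tested because of its low counts.

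In the list of other immunoglobulin-family and junction molecules, 8 were higher and 8 lower of 16 tested, with a median of -0.017 and the smallest p at Nectin2 (-0.22, exact permutation p = 0.413). Madcam1, the gut-type ligand of the Itga4 and Itgb7 pair, was at 0 to 0.164 CPM and was not tested, like Icam4. Of the 14 genes that activate integrins inside the cell, 4 were higher and 10 lower, with a median of -0.044 and the smallest p at Cytip (-0.46, exact permutation p = 0.516). Both signs rested on MXL12, without which Cytip was at 0.11 and the list had 10 higher and 4 lower, with a median of 0.10.

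**Figure D5:**
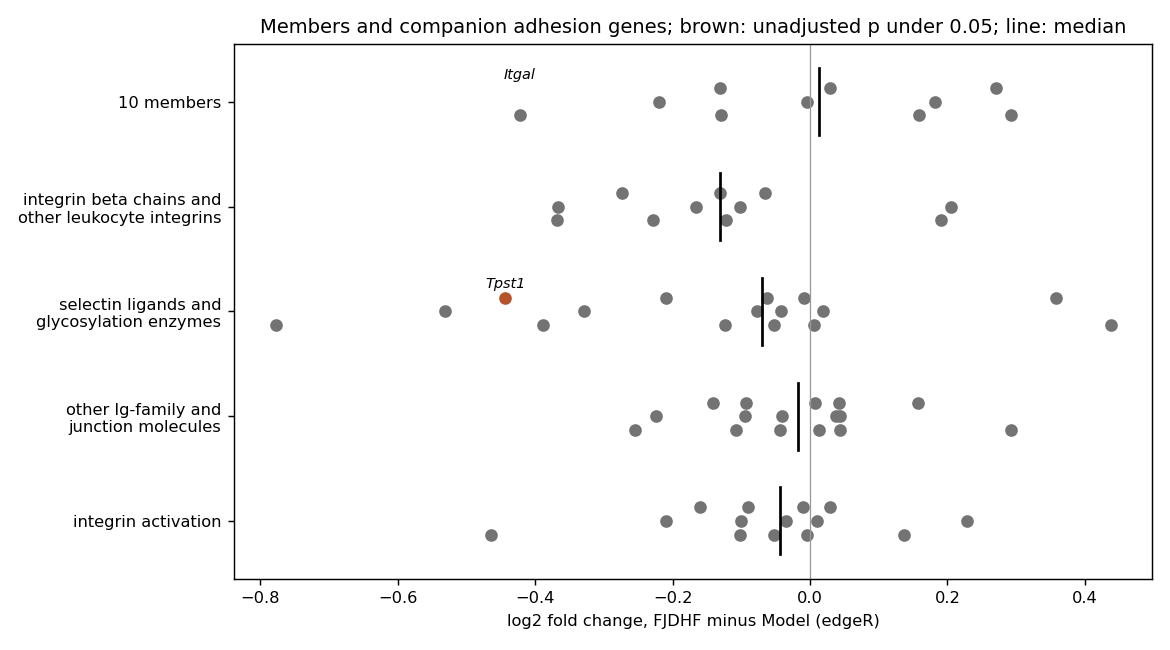
Log2 fold change of FJDHF minus Model (x axis) of the 10 members and the 57 tested companion genes, 1 point per gene in rows by list, with the median of each list as a black line and genes with an unadjusted p under 0.05 in brown. Tpst1 at -0.44 is the brown point.

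Markers of the cells around these molecules are given beside them as measured. The 13 endothelial markers had 4 higher and 9 lower in the FJDHF group (median -0.052, none at an unadjusted p under 0.05), and their mean level ran from 4.28 to 5.48 on the log2 scale in the Model and from 4.34 to 5.08 in the FJDHF libraries. The 5 venular markers, of the vessels where leukocytes leave the blood, had 4 higher and 1 lower (median 0.14). The 6 lymphatic markers were all lower (median -0.29), with Prox1 at -0.61 (edgeR p = 0.0310, exact permutation p = 0.0317) and Mmrn1 at -0.43 (edgeR p = 0.0421, exact permutation p = 0.0476). With a library left out, the unadjusted edgeR p stayed under 0.05 in 5 of 9 fits for Prox1 (0.107 without MXL_3, 0.0714 without MXL12) and in 2 of 9 for Mmrn1 (0.104 without MXL12, 0.0647 without MXL_3). Mural cell markers had 1 higher and 5 lower (median -0.14), and platelet markers 1 higher and 3 lower of 4 tested (median -0.18). The median of the endothelial markers was 0.23 and that of the mural markers 0.31 without MXL_3, that of the venular markers -0.013 without MXL12, and that of the platelet markers 0.10 without MXL1.

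Of the leukocyte lists, pan-leukocyte markers had 4 higher and 4 lower (median -0.052) and T cell markers 5 higher and 3 lower (median 0.012). The 8 macrophage markers were all higher (median 0.21) without any at an unadjusted p under 0.05, and without MXL3_4 they had 4 higher and 4 lower (median -0.013). The 8 neutrophil markers were all lower (median -1.02), with a mean level of 4.29 in MXL12 against 1.24 to 2.91 in the other libraries, and without MXL12 they had 4 higher and 4 lower (median 0.25). Mmp8 alone of this list passed the unadjusted threshold, at -1.18 (edgeR p = 0.00496, exact permutation p = 0.00794), and again without MXL12 (edgeR p = 0.0172). The cytokines that induce adhesion molecules had 2 higher and 5 lower of 7 tested (median -0.55), with a mean level of 2.50 in MXL12 against 0.426 to 1.38 elsewhere, and without MXL12 they had 6 higher and 1 lower (median 0.40). The 7 fibroblast markers were all lower (median -0.42), basal keratinocyte markers 3 higher and 4 lower (median -0.00079) and skeletal muscle markers 3 higher and 5 lower (median -0.22), with a muscle level from 5.38 in MXL12 to 10.5 in MXL_3, without which all 8 were higher (median 1.18). With the muscle level as a covariate, the log2 fold change of Sele was 0.60, and with the pan-leukocyte level as a covariate that of Itgal was -0.41. No member had an unadjusted p under 0.05 in either fit, and the part of the other cell types was not tested beyond the ratios given above.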

How the data were processed

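RNA-seq values of 9 back skin libraries (4 Model, 5 FJDHF) were analysed. The authors deposited whole-number read counts per gene without normalization, and FPKM values scaled for gene length and depth. The submitters' processing notes name HISAT, StringTie, DESeq2 and mm10, without versions, and whether strand was used in counting is not given in the sources used here. In the FPKM table, 9 further columns of per-library values repeat the counts and were not used.

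Counts were fitted across all 20817 genes that passed filterByExpr with edgeR 4.0.16 (R 4.3.3, TMM scaling, quasi-likelihood test, Benjamini-Hochberg adjustment, no covariate). The thresholds were an adjusted p under 0.05 and, as in the study, a fold change of 2. Single members were tested on log2(CPM + 0.5) by a two-sided exact permutation test, also relative to the mean of marker lists. Positions are those of the deposited table (GRCm38), and transcript models, length and GC content came from GENCODE M21, with a GC value for 99.9% of tested genes and for all members. Intervals of fold changes reflect the spread between libraries. The floor of 3 counts (0.0375 to 0.0415 CPM) covers counting error only, because reads copied by PCR are not separate molecules.

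The members, the companion and marker lists and the tests were chosen with earlier results of these data known. Named genes were the 10 members, up to 3 tested genes with the smallest unadjusted p of each list, Itgb1, Itgb2, Itgb7, Madcam1 and defining markers. Fut7, Chst4, Icam4 and the genes that overlap a member were named after their values were seen. 1 gene of the companion lists was left out of them and is not reported here. Alternatives were DESeq2's size factors, DESeq2 1.42.0, limma 3.58.1 on log2(FPKM + 1), other filters, muscle and leukocyte levels as covariates, other pseudocounts and reference lists, ranks, each library left out, and a replicate block. GC corrections were added after seeing the data. The steps were tested on simulated data.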

Additional observations from a re-analysis of the deposited data

Results flagged for a closer look

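Within a group, a library was set aside for a closer look where its gap to the nearest library, divided by the range of the group, passed Dixon's limit at the 95% level. Over 40 comparisons (10 members, 2 scales and 2 groups) 3 passed, where chance gives about 2. Icam2 in the Model library MXL_3 had a ratio of 0.833, with 9.14 CPM against 3.14 to 3.78 CPM in the other Model libraries. Relative to the endothelial markers, Selp in the Model library MXL12 had a ratio of 0.870, at 0.43 against -1.15 to -0.94 in the other Model libraries. Relative to the pan-leukocyte markers, Selplg in the Model library MXL1 had a ratio of 0.905, at -1.10 against -2.31 to -2.19. All 3 were high values in the Model group, each in a different library.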

How the results depend on the processing

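No member passed an adjusted p under 0.05 under any alternative run. The count of genes past that threshold was 0 in each of them but DESeq2's Wald test, which called 2, both also over 2-fold. At an unadjusted p under 0.05 the count was 905 without a filter on low counts, and 217 (without MR4_5) to 734 (without MXL1) when single libraries were left out. The number of members at an unadjusted p under 0.05 was then 0 to 1, with Sele without MXL12 and Itgal without MXL3_4.

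The sign of the small differences changed with the setting. The log2 fold change of Icam2 was -0.016 with the GC correction and -0.049 with GC and length. That of Pecam1 was 0.0046 with GC and length, 0.012 with at least 10 counts in every library, 0.072 with limma and 0.030 with the leukocyte covariate. That of Cdh5 was 0.0013 with limma, and its level difference 0.0036 on FPKM and 0.45 in ranks. The level difference of Vcam1 was 0.0017 with the GC correction, and 0.096 with it and without MXL12, where that of Icam2 was -0.024. Relative to its cell type, Vcam1 was 0.062 with the smaller reference list and 0.035 with the GC correction, and Cdh5 0.072 with the smaller list. The causes were not tested.

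Leaving out single libraries moved the log2 fold change from -0.45 to 0.12 for Selplg, -0.16 to 0.52 for Icam2, -0.35 to 0.17 for Vcam1, -0.14 to 0.19 for Pecam1 and -0.30 to 0.29 for Cdh5. The level difference moved from -0.47 to 0.087 for Selplg, -0.057 to 0.41 for Icam2, -0.31 to 0.23 for Vcam1, -0.11 to 0.22 for Pecam1 and -0.21 to 0.29 for Cdh5. Relative to the cell type it moved from -0.057 to 0.96 for Sele, -0.31 to 0.097 for Selplg, -0.025 to 0.22 for Icam1, -0.063 to 0.18 for Icam2, -0.36 to 0.25 for Vcam1, -0.16 to 0.28 for Pecam1 and -0.15 to 0.062 for Cdh5. Sele, Selp, Icam1, Itgal and Itga4 kept the sign of their log2 fold change in all 19 alternatives, but not its size: Sele was 0.60 with the muscle level as a covariate (edgeR's unadjusted p = 0.0905).

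The codes of 3 pairs of libraries share a number, but deviations within the pairs correlated at 0.22, 0.12 and -0.22, so the numbers were not taken to pair the samples. With them as a replicate block, 281 genes and 0 members had an unadjusted p under 0.05, the log2 fold change was 0.80 for Sele (edgeR's unadjusted p = 0.0835, adjusted p = 1.00) and -0.16 for Itgal (edgeR's unadjusted p = 0.604), and that of Selplg (0.20), Vcam1 (0.037), Pecam1 (0.21) and Cdh5 (0.11) changed sign. The block leaves few libraries in the fit, and it changed no call.

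With 9 libraries, the intervals of the members reach from 0.464-fold (Selplg) to 2.24-fold (Sele) at their outermost. They differ by member, with 0.700- to 1.42-fold for Pecam1, and for each member the differences inside its own interval are not excluded. Every member had at least 216 counts in each library, and the part of depth in the width of the intervals was not tested.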
